A study of Mus musculus with 6 samples.

Results

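The clustered Hox genes encode homeodomain transcription factors that stand side by side in 4 chromosomal clusters, HoxA, HoxB, HoxC and HoxD. They were taken as every probe set whose platform annotation names exactly 1 gene with a symbol of that form, and the probe set with the highest mean log2 value was kept for each gene. This gave 33 genes, read by 48 probe sets, of 18193 genes measured in all. Hox genes outside these 33 were not analysed here as genes of their own. The samples were Thy1-positive and Thy1-negative cell fractions of prepubertal mouse testis, separated with magnetic beads for the surface glycoprotein Thy1 and each represented by 3 arrays from independent donor preparations. The labels name no genetic change and no treatment for either fraction, and the strain and exact age were not given in the sources used here. The series' title describes the Thy1-positive fraction as enriched for spermatogonial stem cells and the Thy1-negative fraction as depleted of them. Both fractions are mixtures of cell types, so fewer cells of a type and less RNA per cell cannot be told apart in any value below.

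Hox genes are known for giving cells a position along the body axis. Within a cluster, genes at the 3′ end (low numbers) are used towards the head and early in development, and genes at the 5′ end (high numbers) towards the tail and later. Genes with the same number in different clusters are paralogs, copies of a common ancestor. Hox proteins bind DNA together with partners of the TALE homeodomain class, the PBX, MEIS and PKNOX proteins, and their clusters are kept silent by Polycomb complexes and active by trithorax-type complexes. In adult tissues, subsets of Hox genes stay active in mesenchymal cells and in blood progenitors.

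Arrays are called P1 to P3 for Thy1-positive and N1 to N3 for Thy1-negative cells. Levels are log2(intensity + 1), and differences are Thy1-positive minus Thy1-negative on that scale, so they understate the change of dim genes. Fold changes are on the same scale. A level is compared between fractions for 1 probe set only, never between genes. A gene was called above background in a fraction where its mean exceeded the mean of the array medians there, which was a median intensity between 15.7 and 17.5. Adjusted p is from limma over all 18193 genes with Benjamini-Hochberg adjustment, 2-sided, with n = 3 arrays per fraction, and a gene passed where it was below 0.05. With 3 arrays each, precision is limited.

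Thy1 itself measured 6.05, 6.52 and 6.05 on P1, P2 and P3, against 2.35, 2.35 and 2.74 on N1, N2 and N3. Correlations between arrays across genes lay between 0.990 and 0.997 within the Thy1-positive fraction and between 0.985 and 0.997 within the Thy1-negative one. N2 stood nearest to the Thy1-positive arrays (r between 0.954 and 0.967, against 0.925 to 0.949 for N1 and N3). For 18S ribosomal RNA, the control probe set at the 5′ end had intensities of 187, 33.7 and 47.6 on P1, P2 and P3. On N1, N2 and N3 it measured 336, 29178 and 12545, so the Thy1-negative arrays differed widely among themselves. Of the marker lists, all 8 measured genes of undifferentiated spermatogonia and all 9 of macrophages were higher in Thy1-positive cells, with summed intensities of 11867 to 13980 against 1999 to 2373 and of 11107 to 17796 against 126 to 160. Of all genes 18.5% passed as higher and 14.4% as lower, and of those above background 27.9% and 22.2%. Germ cell genes were higher for 4 of 8 and T lymphocyte genes for 3 of 5. Sertoli cell genes were lower for 9 of 10, with summed intensities of 895 to 3149 in Thy1-positive against 18460 to 29535 in Thy1-negative cells, and peritubular myoid genes were lower for 4 of 6. In Thy1-positive cells 8 of the 10 Sertoli genes were still above background, and in Thy1-negative cells 3 of the 9 macrophage genes. Interstitial mesenchyme genes were lower for 1 of 7 (14.3%, near the share of all genes), with summed intensities of 13912 to 34145 against 24876 to 32993. Leydig genes were lower for 2 of 4 and erythroid genes for 2 of 3. Of 6 endothelial genes 1 was higher and 1 lower (33.3%, against 33% of all genes). Among the endothelial genes, Cdh5 was above background in both fractions, Tek in Thy1-positive and Kdr in Thy1-negative cells alone, and Emcn, Esam and Pecam1 in neither.

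Most Hox genes lay below the background line, the array median, in both fractions. That line is not a limit of detection. The 95th percentile of olfactory receptor probe sets lay lower, at 2.95 to 2.98 on the 6 arrays, and more Hox genes were above that level. Of the 33, 8 (24.2%) were above background in the Thy1-positive fraction and 6 (18.2%) in the Thy1-negative one, whereas of all genes 62.4% and 60.7% were. In at least 1 fraction 9 genes were above background (27.3%, against 64.1% of all genes): Hoxb3, Hoxb4, Hoxb6, Hoxb9, Hoxc4, Hoxc6, Hoxd8, Hoxd9 and Hoxd10. The other 24 had array values between 2.21 and 4.28, and 19 of them differed by less than 0.1 between the fractions. None of these 24 passed the test by limma, and 1 had an unadjusted p below 0.05. Of the 5996 genes that passed in all, 5842 were above background in at least 1 fraction, so few genes below it passed. Of all 18193 genes, 6303 differed by less than 0.1.

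By place in the cluster, the HoxD genes above background were 3 consecutive Hox genes. Hoxd11, Hoxd12 and Hoxd13 on their 5′ side and Hoxd3 and Hoxd1 on their 3′ side were below it. Hoxd4, also on the 3′ side, had no probe set of its own. In HoxB the genes above background were Hoxb3 and Hoxb4, which neighbour each other, then Hoxb6, and apart from these Hoxb9. Hoxb1, Hoxb2, Hoxb5, Hoxb7 and Hoxb13 were below. In HoxC they were Hoxc4 and Hoxc6, and in HoxA 0 of 9 genes were above background. Counted by paralog group, 1 of 7 members of groups 1 to 3, 5 of 12 of groups 4 to 8 and 2 of 14 of groups 9 to 13 were above background in Thy1-positive cells, against 1, 2 and 3 in Thy1-negative cells. The line at the array median decides this count, since at the 25th percentile of the arrays 21 genes were above it in each fraction, and at the 75th percentile 2 were. Each fraction had its own line, with array medians of 4.06 to 4.09 for Thy1-positive and 4.18 to 4.21 for Thy1-negative arrays. Hoxc6 counted for Thy1-positive cells alone, although it measured 4.10 there against 4.14 in Thy1-negative cells. Hoxb4 fell just short of the line in Thy1-negative cells, at 4.18.

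**Figure D1:**
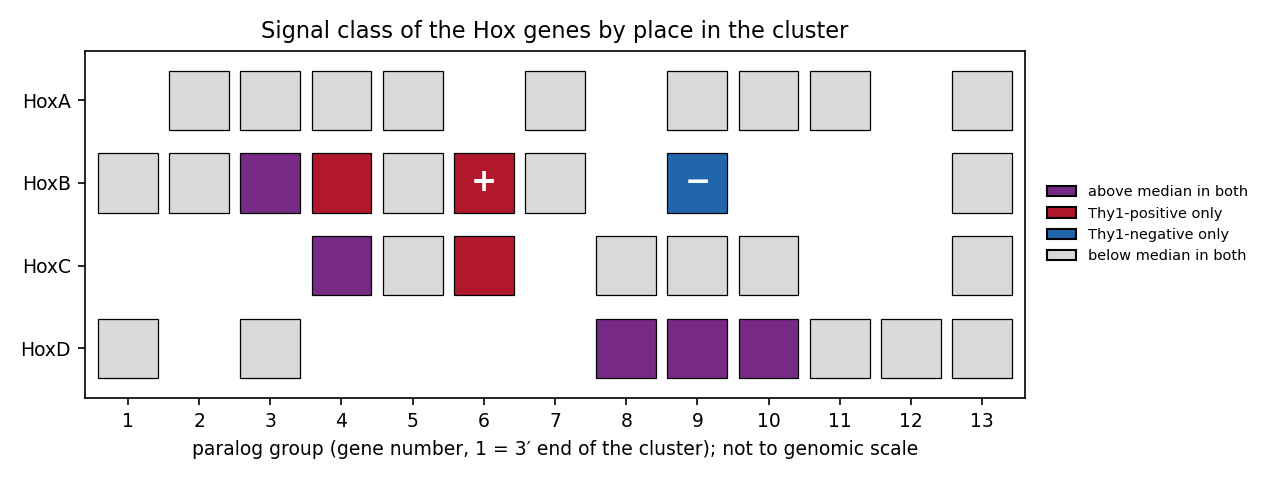
Signal class of each of the 33 Hox genes analysed, by cluster (rows) and paralog group (columns, gene number), where colour gives the fractions in which the mean was above the array median and + or − marks a gene that passed the test as higher or lower in Thy1-positive cells. Levels above the array median of their fraction are limited to 9 of 33 genes. The block Hoxd8, Hoxd9 and Hoxd10 lies above the median in both fractions and HoxA below it throughout.

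Between the fractions, 1 Hox gene was higher in Thy1-positive cells, Hoxb6, and 1 was lower, Hoxb9. Together these are 6.06% of the members, against 33% of all genes tested that passed (18.5% higher and 14.4% lower). Both are among the 9 Hox genes above background in at least 1 fraction. Of all genes above background in at least 1 fraction, 50.1% passed (27.9% higher and 22.2% lower). By limma, 6 of 33 Hox genes had an unadjusted p below 0.05, against 43.6% of all genes. For 9 Hox genes (27.3%) all arrays of 1 fraction lay above all of the other, 6 higher and 3 lower in Thy1-positive cells, against 51.4% of all genes (31.6% higher and 19.8% lower). The median difference was 0.01 over the Hox genes and 0.01 over all genes. Among the 9 Hox genes above background it was -0.04, against 0.15 over all genes above background. Centring each array on its median made 21 Hox genes higher and 2 lower, and centring on housekeeping genes made 3 higher and 19 lower. Of the Hox genes called under these scalings, 17 and 16 differed by less than 0.3. The median difference of all genes was 0.13 with the centring on medians and -0.14 with that on housekeeping genes. Hoxb6 was higher and Hoxb9 lower under both. The housekeeping list is no fixed reference here, since without centring 3 of its 10 genes passed as higher and 1 as lower (40%).

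**Figure D2:**
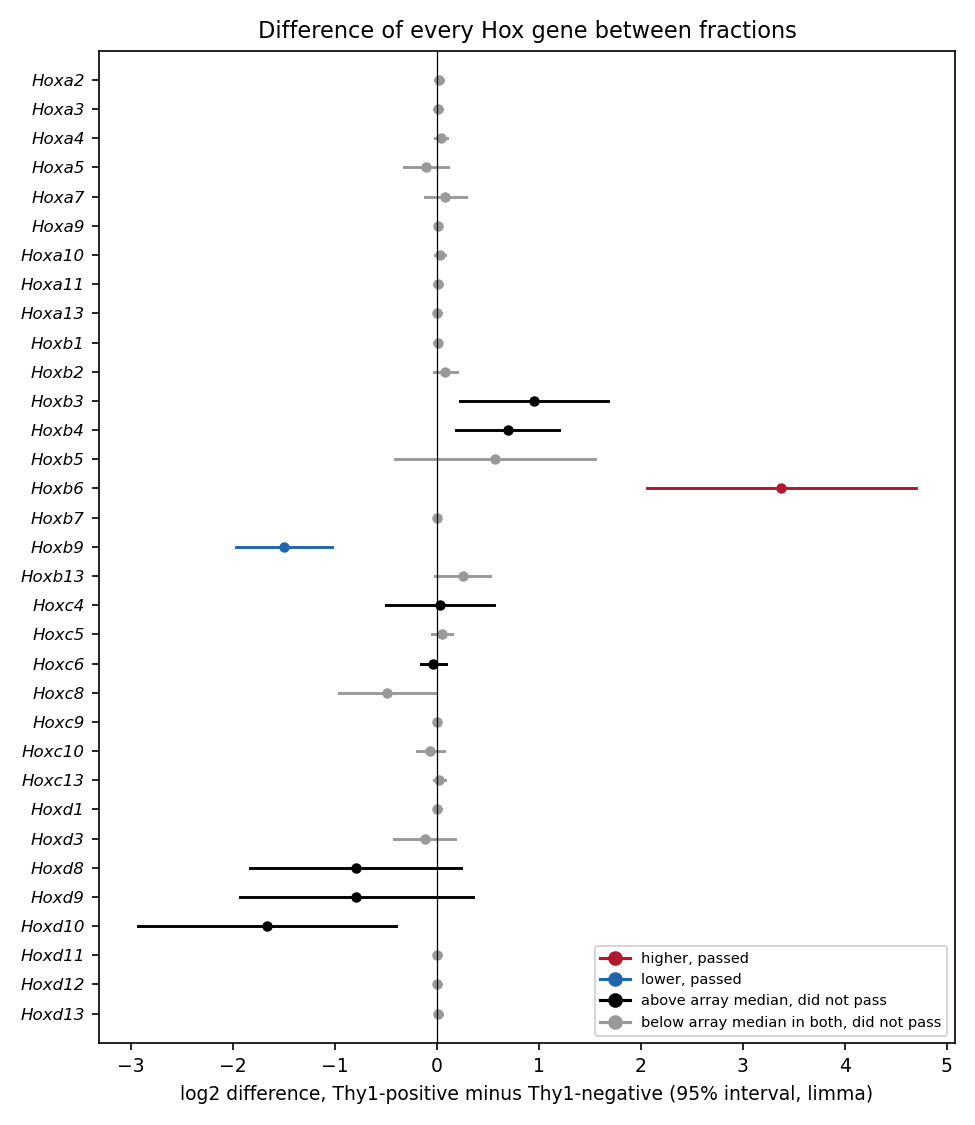
Log2 difference, Thy1-positive minus Thy1-negative, of all 33 Hox genes with the 95% interval of limma (n = 3 arrays per fraction), in order of cluster and gene number. Hoxb6 lies at 3.38 and Hoxb9 at -1.51. Of the 33 genes 21 lie within 0.1 of 0, against 6303 of all 18193 genes.

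Hoxb6, a gene of the central part of HoxB that is known to be active in blood progenitors, measured 6.81, 5.27 and 6.37 on P1, P2 and P3, against 2.51, 2.47 and 3.35 on N1, N2 and N3. Every Thy1-positive array lay above every Thy1-negative one, and all 3 Thy1-negative arrays were below background. The difference was 3.38 (SE 0.50, adjusted p = 0.0109). Setting the Thy1-negative mean at the background line, since the gene was not above it there, Hoxb6 was at least 3.88-fold higher in Thy1-positive cells. Leaving out P3 ended the call (3.26, adjusted p = 0.0538), and leaving out any other array did not. With a pseudocount of 16 the difference was 1.99 (adjusted p = 0.0196).

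Hoxb9, a posterior gene of HoxB known for patterning the ribs, ran the other way. It measured 3.26, 2.89 and 3.11 on P1, P2 and P3, against 4.88, 4.33 and 4.57 on N1, N2 and N3. The groups did not overlap, with all 3 Thy1-positive arrays below background and all 3 Thy1-negative ones above it. The difference was -1.51 (SE 0.18, adjusted p = 0.00676), and Hoxb9 was at least 1.43-fold lower in Thy1-positive cells by the same bound. It passed in each of the 6 fits that left out 1 array, and with a pseudocount of 16 the difference was -0.74 (adjusted p = 0.0104). Hoxb7, which lies between Hoxb6 and Hoxb9, measured 2.45 in both fractions. The probe set shared by Hoxb8 and Hoxb7 measured 2.42 in Thy1-positive cells, against 2.41 in Thy1-negative cells.

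Of the genes on the 3′ side of Hoxb6, Hoxb3 and Hoxb4 did not pass the test. Hoxb3, known for its part in hindbrain patterning, measured 5.85, 4.83 and 5.48 on P1, P2 and P3, against 4.48, 4.42 and 4.42 on N1, N2 and N3 (difference 0.95, SE 0.28, adjusted p = 0.0592). Hoxb4, known for the expansion of blood stem cells when it is supplied in excess, measured 4.99, 4.49 and 5.12 in Thy1-positive against 4.26, 4.02 and 4.25 in Thy1-negative cells (0.69, SE 0.19, adjusted p = 0.0525). Neither gene's arrays overlapped between the fractions, but Hoxb3 and Hoxb4 each have another probe set, and those were below background with differences of -0.05 and 0.08. Hoxb5 was below background in both fractions, at 4.05, 2.66 and 3.45 on P1, P2 and P3 against 2.83, 2.80 and 2.83 on N1, N2 and N3 (0.57, SE 0.37, adjusted p = 0.329), and its arrays overlapped. Hoxb3, Hoxb4 and Hoxb5 passed when P2 was left out (1.23, 0.88 and 0.93, adjusted p = 0.0117, 0.0138 and 0.0479 by limma), and Hoxb5 measured 0.24 without P1 (adjusted p = 0.627). As the mean of all probe sets, Hoxb3 and Hoxb4 passed at smaller differences (0.45 and 0.38, adjusted p = 0.0476 and 0.0393 by limma). P2 was the lowest Thy1-positive array for Hoxb3, Hoxb4, Hoxb5 and Hoxb6.

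**Figure D3:**
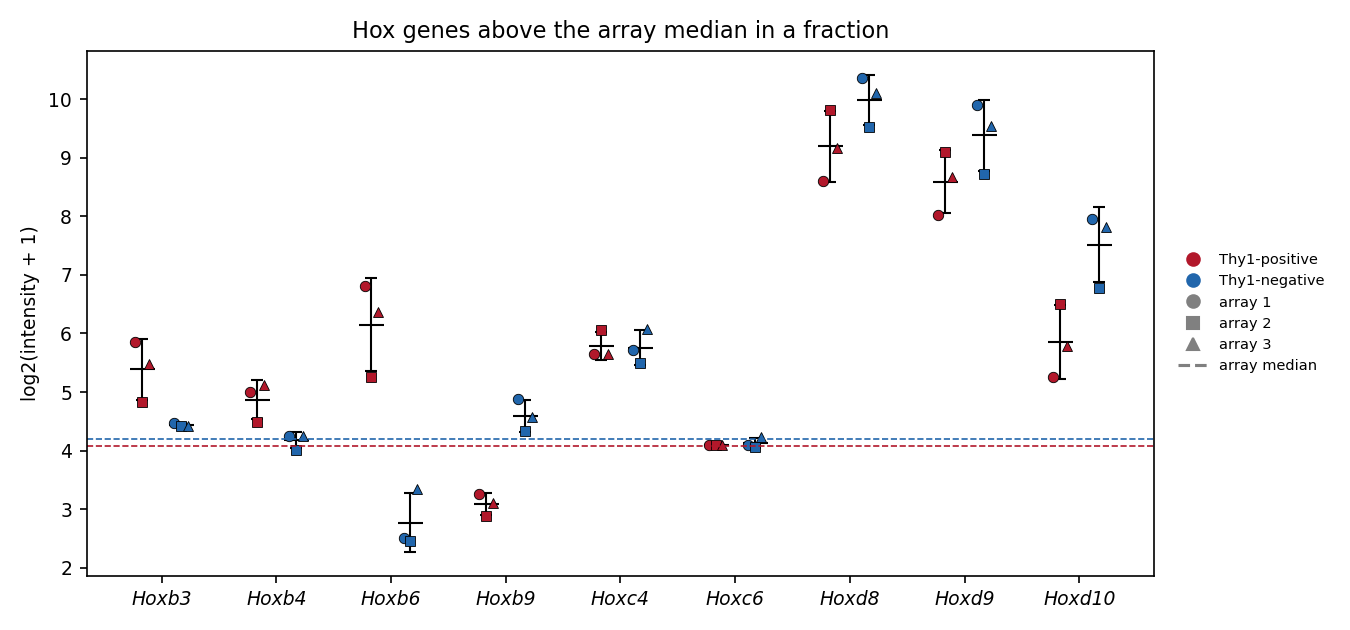
Level, log2(intensity + 1), of the 9 Hox genes above background in at least 1 fraction, with a point per array (circle, square and triangle for arrays 1, 2 and 3), mean ± SD of the 3 arrays as bars, and the array median of each fraction as a dashed line. Hoxb6 lies higher and Hoxb9 lower in Thy1-positive cells, and the arrays of Hoxd8 and Hoxd9 overlap.

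The block of Hoxd8, Hoxd9 and Hoxd10 was well above background in both fractions. These genes are known for patterning the trunk and limbs, Hoxd9 and Hoxd10 in particular for the limbs and the lumbar and sacral region. Hoxd8 measured 8.61, 9.81 and 9.16 on P1, P2 and P3, against 10.35, 9.52 and 10.10 on N1, N2 and N3. Its arrays overlapped (-0.80, SE 0.39, 95% interval -1.84 to 0.24, adjusted p = 0.200), and its other probe set differed by -0.89 (SE 0.41). Hoxd9 measured 8.01, 9.09 and 8.67 in Thy1-positive, against 9.89, 8.72 and 9.53 in Thy1-negative cells. Here too P2 lay above N2, so the groups overlapped (-0.79, SE 0.43, 95% interval -1.93 to 0.35, adjusted p = 0.244). Hoxd10 measured 5.26, 6.51 and 5.78 on P1, P2 and P3, against 7.96, 6.78 and 7.81 on N1, N2 and N3. Its groups did not overlap, yet it missed the threshold (-1.67, SE 0.48, 95% interval -2.93 to -0.40, adjusted p = 0.0578). Without P1, Hoxd8 and Hoxd9 differed by -0.51 and -0.50, and with array weights both passed (-1.16 each, adjusted p = 0.0141 and 0.0208 by limma). That fit gave low weights to P2 and N2, the arrays on which these genes overlapped (0.29 and 0.18, against 1.53 to 3.62 for the others). Hoxd10 passed without N2 (-2.04, adjusted p = 0.0315), which was the lowest Thy1-negative array for Hoxd8, Hoxd9 and Hoxd10.

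Of the 33 members, 19 had a promoter in the RefSeq promoter table of build GRCm38.p6, in 21 windows of 300 bases, from 250 before to 50 after a start site. Promoters are shown for the 3 HoxD genes that vary together across arrays and for Hoxb4, the HoxB gene above background that the table holds. They lie at chr2:74704365-74704664 (Hoxd8), chr2:74697513-74697812 (Hoxd9), chr2:74691641-74691940 (Hoxd10) and chr11:96318017-96318316 (Hoxb4), all on the plus strand and written 5′ to 3′. Capitals mark matches to any of 6 short motifs searched on both strands, overlapping matches included. These were the TATA box core TATAAA, the CCAAT box, the GC box GGGCGG, the HOX-PBX composite site TGATTNAT, the MEIS core TGACAG and the homeodomain core TAATTA.
Hoxd8: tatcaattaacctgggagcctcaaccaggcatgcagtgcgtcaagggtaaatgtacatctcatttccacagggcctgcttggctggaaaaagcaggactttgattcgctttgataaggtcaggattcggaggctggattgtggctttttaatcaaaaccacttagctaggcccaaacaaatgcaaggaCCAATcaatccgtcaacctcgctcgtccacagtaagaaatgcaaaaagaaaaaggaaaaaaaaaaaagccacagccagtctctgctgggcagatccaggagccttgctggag
Hoxd9: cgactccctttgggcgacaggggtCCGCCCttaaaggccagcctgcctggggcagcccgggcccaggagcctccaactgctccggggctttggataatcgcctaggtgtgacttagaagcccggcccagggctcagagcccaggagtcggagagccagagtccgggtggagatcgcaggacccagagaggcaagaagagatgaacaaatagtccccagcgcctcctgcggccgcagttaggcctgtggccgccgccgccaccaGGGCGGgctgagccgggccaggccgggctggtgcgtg
Hoxd10: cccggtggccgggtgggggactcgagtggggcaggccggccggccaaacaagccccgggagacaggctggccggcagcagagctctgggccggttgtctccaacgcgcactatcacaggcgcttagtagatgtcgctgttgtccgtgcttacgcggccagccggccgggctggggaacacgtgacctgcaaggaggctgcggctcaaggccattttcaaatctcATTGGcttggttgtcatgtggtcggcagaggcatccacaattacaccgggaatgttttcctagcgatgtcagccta
Hoxb4: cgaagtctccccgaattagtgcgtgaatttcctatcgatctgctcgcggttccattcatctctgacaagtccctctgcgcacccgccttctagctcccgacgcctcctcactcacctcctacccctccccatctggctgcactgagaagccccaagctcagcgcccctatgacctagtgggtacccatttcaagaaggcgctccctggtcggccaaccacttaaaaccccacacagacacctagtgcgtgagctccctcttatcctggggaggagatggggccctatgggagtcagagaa

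The Hoxd8 window holds a CCAAT box at position -62 from the start site, and that of Hoxd10 a CCAAT box on the minus strand at -26. The Hoxd9 window holds GC boxes at -226 on the minus strand and at 14 on the plus strand. None of the 6 motifs is in the Hoxb4 window. Of all 32851 promoter windows in the table, 37.4% hold the CCAAT box and 35.7% the GC box, against 12 (57.1%) and 8 (38.1%) of the 21 Hox windows. TATAAA was in 9.52% of Hox windows against 13.6% of all, TGATTNAT in 9.52% against 3.22%, TGACAG in 9.52% against 19.2% and TAATTA in 9.52% against 5.29%, each 2 of 21 Hox windows. The dinucleotide CG occurred 6 times in the Hoxd8 window, 20 times in that of Hoxd9, 22 times in that of Hoxd10 and 14 times in that of Hoxb4. Its median count was 15 over the Hox windows, against 7 over all windows.

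Inside the clusters, 5 further annotated transcripts had a probe set of their own. By limma 0 passed the test, against 33% of all genes (median difference -0.01). Hoxd3os1, a non-coding RNA gene between Hoxd8 and Hoxd3, was the member of this group above background. It measured 6.37, 6.45 and 6.05 on P1, P2 and P3, against 7.01, 6.60 and 6.49 on N1, N2 and N3 (-0.41, SE 0.19, adjusted p = 0.170). The groups did not overlap, and its other probe set was below background at 2.54 in both fractions. Gm38462, annotated between Hoxd9 and Hoxd8, measured 3.73 in the Thy1-positive fraction and 3.81 in the Thy1-negative one, below background in both. Hoxb5os measured 3.28 against 3.06 and was below background as well. The probe sets shared by Hoxd4 and Hoxd3 measured 4.22 against 4.16 and 2.45 against 2.68 (Thy1-positive against Thy1-negative), and cannot be assigned to either gene. The first was above background in Thy1-positive cells and just below the line in Thy1-negative cells.

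No HoxC gene passed the test. Hoxc4, the most 3′ gene of HoxC and known for its part in the development of the oesophagus, measured 5.65, 6.06 and 5.65 on P1, P2 and P3, against 5.72, 5.49 and 6.07 on N1, N2 and N3. The arrays overlapped, and the 95% interval of the difference was -0.50 to 0.56 (0.03, SE 0.20, adjusted p = 0.947). Hoxc6 lay at the background line and its arrays overlapped, at 4.10, 4.09 and 4.10 on P1, P2 and P3, against 4.10, 4.07 and 4.23 on N1, N2 and N3 (-0.04, SE 0.05, adjusted p = 0.651). Its other probe sets averaged 2.37 and 2.10, against 2.38 and 2.10. Hoxc8, a trunk gene known for vertebral identity, was below background in both fractions. It measured 3.43, 3.43 and 3.44 on P1, P2 and P3, against 3.86, 3.62 and 4.28 on N1, N2 and N3 (-0.49, SE 0.18, adjusted p = 0.104), and its groups did not overlap. The arrays of Hoxb13 did not overlap either, at 3.88 against 3.63, nor did those of Hoxa2 and Hoxa4, which differed by 0.02 and 0.04. Hoxb13, Hoxa2 and Hoxa4 were below background in both fractions. Without N2, Hoxc8 and Hoxb13 passed (-0.64 and 0.35, adjusted p = 0.0353 and 0.0240 by limma).

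Within a fraction, the 3 HoxD genes had the same order of arrays. In Thy1-positive cells Hoxd8, Hoxd9 and Hoxd10 were highest on P2 and lowest on P1, while Hoxb3, Hoxb4 and Hoxb6 were lowest on P2. Relative to the mean of the fraction, P2 lay 0.62, 0.50 and 0.66 higher for the HoxD genes, and it measured -0.55, -0.38 and -0.88 for the HoxB genes. In Thy1-negative cells the HoxD genes were highest on N1 and lowest on N2, with N2 at -0.47, -0.66 and -0.74 relative to the mean of its fraction. Hoxb3 and Hoxb4 varied by less there. Other genes had the order of the HoxD genes in both fractions, among them Cbx5 beside HoxC, Pdgfra and Cdh5. The share of all genes with this order was not counted. The mean of the interstitial mesenchyme list was 9.83, 11.25 and 10.47 on P1, P2 and P3, against 11.03, 10.58 and 11.07 on N1, N2 and N3, so that it too was highest on P2, lowest on P1 and, in Thy1-negative cells, lowest on N2, but highest on N3 there. That of the Sertoli cell list was 5.36, 6.80 and 5.53 against 10.07, 9.46 and 9.94, the order of the HoxD genes in both fractions. Lists lowest on P2 among the Thy1-positive arrays, as Hoxb3, Hoxb4 and Hoxb6 were, included undifferentiated spermatogonia (10.29, 9.88 and 10.21, against 6.87, 7.27 and 7.12) and Leydig cells (9.13, 8.58 and 9.28, against 10.68, 9.54 and 10.22). The germ cell list (12.01, 11.92 and 11.99, against 9.45, 11.11 and 9.97) and the housekeeping list (11.84, 11.76 and 11.84, against 11.69, 11.64 and 11.65) were lowest on P2 as well, by less. Members did not all follow these means. Gfra1, Ret, Lhx1, Id4 and Cdh1 were lowest on P2, but Zbtb16 was highest there and Etv5 was lowest on P1. Bcl6b was level on P1 and P2. In the germ cell list Ddx4, Mael, Sycp3 and Tex101 were lowest on P2, but Dazl, Tdrd1 and Tdrd5 were highest there. The macrophage list was highest on P2 (9.85, 10.41 and 10.17, against 3.64, 3.52 and 3.54). The peritubular myoid list was also highest on P2, but highest on N2 as well, unlike the HoxD genes (5.75, 6.09 and 5.75, against 7.62, 8.46 and 7.93). So was the T lymphocyte list, by less (5.29, 5.36 and 5.31, against 3.02, 3.15 and 2.95). The part of these cell types in the Hox differences was not tested.

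**Figure D4:**
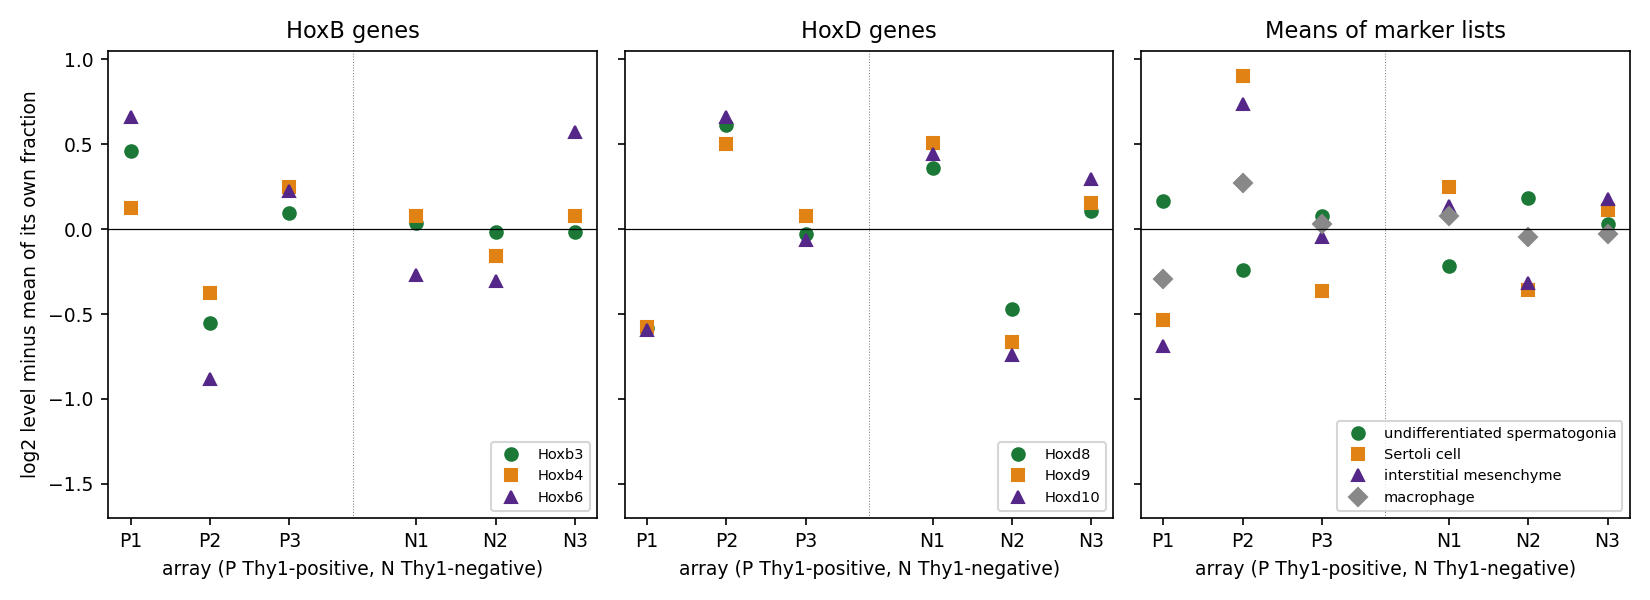
Level on each array minus the mean of its own fraction (log2) for the HoxB genes, the HoxD genes and the means of the marker lists, with Thy1-positive arrays left and Thy1-negative arrays right in each panel. On P2 all 3 HoxD genes and the mesenchyme and Sertoli lists lie above their fraction's mean and all 3 HoxB genes below it, and on N2 the HoxD genes lie below.

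Among the TALE partners, 5 of 8 measured genes (62.5%) passed, 3 higher and 2 lower in Thy1-positive cells, against 33% of all genes and 50.1% of all genes above background. Their median difference was 0.21. Meis1, a cofactor of Hox proteins known from blood and limb development, measured 6.41, 7.08 and 6.59 on P1, P2 and P3, against 9.30, 8.62 and 9.36 on N1, N2 and N3. It was 5.28-fold lower in Thy1-positive cells without overlap (-2.40, SE 0.29, adjusted p = 0.00690) and passed in each of the 6 fits that left out 1 array. Pknox2, also known as Prep2, measured 5.90, 7.20 and 6.09 in Thy1-positive, against 8.88, 8.25 and 8.56 in Thy1-negative cells. It was 4.49-fold lower (-2.17, SE 0.41, adjusted p = 0.0196), although it failed without P1, P3, N1 or N3 (adjusted p between 0.0596 and 0.0791). As the mean of all probe sets both passed at smaller differences (-0.996 for Meis1 and -1.30 for Pknox2, adjusted p = 0.00639 and 0.0339 by limma). Both genes, like the HoxD genes, were highest on P2 among the Thy1-positive arrays and lowest on N2 among the Thy1-negative ones. Cbx5, Calcoco1, Pdgfra and Cdh5, which are on other lists, were so as well.

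The PBX genes that passed were higher in Thy1-positive cells. Pbx2 measured 10.77, 11.23 and 10.96 on P1, P2 and P3, against 9.48, 10.30 and 9.67 on N1, N2 and N3, 2.25-fold higher without overlap (1.17, SE 0.26, adjusted p = 0.0296). It passed only without N2 among the 6 fits that left out 1 array (1.41, adjusted p = 0.00846), and not as the mean of all its probe sets (0.42, adjusted p = 0.174). Pbx3 measured 8.93, 8.78 and 9.08, against 8.36, 8.38 and 8.42, 1.45-fold higher (0.54, SE 0.08, adjusted p = 0.0117), and passed in all 6 of those fits. Pbx4 was higher by 0.31 (SE 0.04, adjusted p = 0.00920) but below background in both fractions, so no fold is given. Pknox1, also known as Prep1, measured 8.31, 8.24 and 8.18 on P1, P2 and P3, against 8.41, 7.64 and 7.87 on N1, N2 and N3, with overlap (0.27, SE 0.21, adjusted p = 0.426). Meis2 and Meis3 were below background in both fractions and did not pass.

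**Figure D5:**
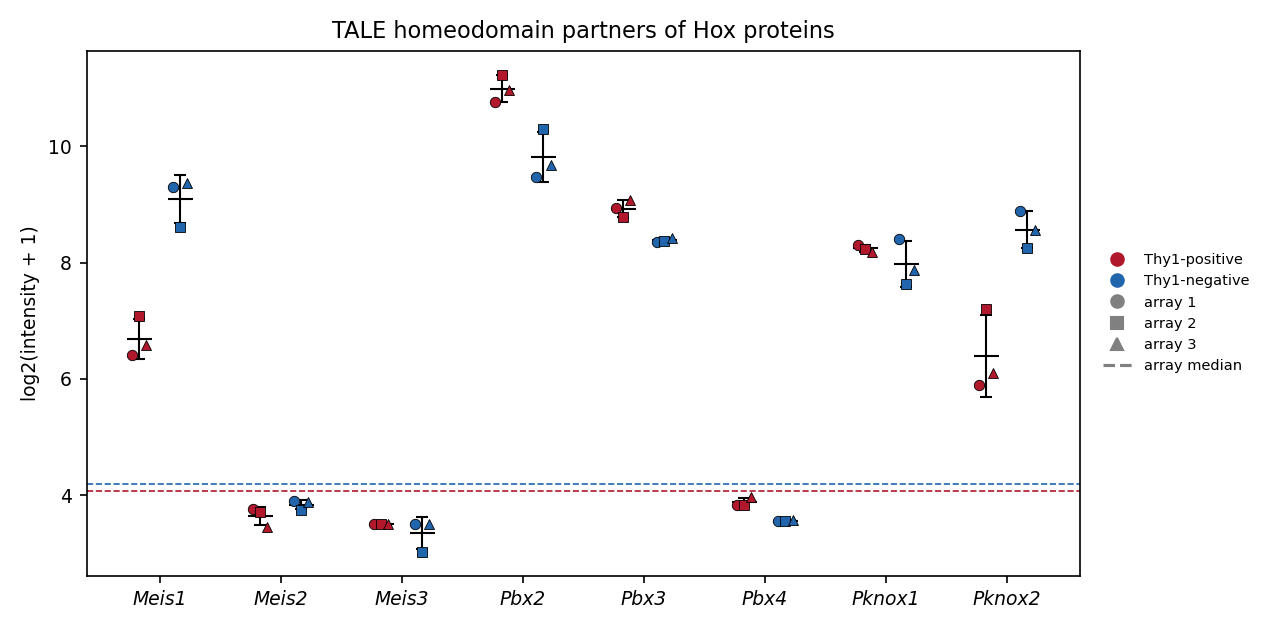
Level, log2(intensity + 1), of the 8 measured TALE partners of Hox proteins, with a point per array, mean ± SD of the 3 arrays as bars and the array medians as dashed lines. Meis1 and Pknox2 are lower and Pbx2 and Pbx3 higher in Thy1-positive cells, and Meis2, Meis3 and Pbx4 lie below the medians.

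Of 23 regulators of Hox chromatin, all were above background in both fractions, and 6 passed as higher and 6 as lower in Thy1-positive cells, with a median difference of 0.08. That is 52.2% of the list, close to the 50.1% of all genes above background that passed. Zbtb16, also known as PLZF and as a regulator of HoxD genes in the limb, is on the list of undifferentiated spermatogonia as well and was 5.71-fold higher (2.51, SE 0.39, adjusted p = 0.0117). Jarid2, an accessory subunit of Polycomb repressive complex 2, was 2.61-fold higher (1.38, SE 0.37, adjusted p = 0.0482), and Ezh1, a histone methyltransferase of that complex, 2.40-fold higher (1.26, SE 0.15, adjusted p = 0.00683). Ring1 and Rnf2, the ubiquitin ligase subunits of Polycomb repressive complex 1, were 1.87-fold (-0.90, SE 0.10, adjusted p = 0.00541) and 1.42-fold lower (-0.50, SE 0.07, adjusted p = 0.00894). Ctcf, the insulator protein that binds between Hox genes, was 1.60-fold lower (-0.68, SE 0.08, adjusted p = 0.00654). Zbtb16 failed without P3 or N3 (adjusted p = 0.0540 and 0.0536), and Jarid2 passed only without N2 among the fits that left out 1 array. Rnf2 did not pass when all probe sets of a gene were averaged (0.041, adjusted p = 0.873). The Polycomb subunits Ezh2, Suz12 and Eed and the trithorax-type methyltransferase Kmt2a, known as MLL, did not pass (differences of -0.43, -0.02, 0.79 and 0.37).

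Homeobox relatives outside the clusters lay below the background line as well. The 11 measured, among them Cdx1, Cdx2 and Cdx4, which activate Hox genes in the embryo, and Evx1 and Evx2, which stand beside HoxA and HoxD, were all below background in both fractions, and 0 passed the test by limma. Few genes below background passed in the table as a whole. Genes that flank the clusters were mostly above background, 10 of 15 in the Thy1-positive fraction and 9 of 15 in the Thy1-negative one, and 2 were higher and 3 lower (33.3%, against 33% of all genes, median difference 0.03). Beside HoxA, the signalling adaptor gene Skap2 and its neighbour Snx10 were 2.48-fold (1.31, SE 0.32, adjusted p = 0.0370) and 2.67-fold higher (1.42, SE 0.24, adjusted p = 0.0144), and on the other side Hibadh, an enzyme of valine breakdown, was 2.22-fold lower (-1.15, SE 0.10, adjusted p = 0.00395), while the 9 HoxA genes between them were below background. Beside HoxC the DNA repair gene Smug1 was 1.59-fold lower (-0.67, SE 0.10, adjusted p = 0.0120), and near HoxD the transcription factor gene Atf2 was 1.46-fold lower (-0.55, SE 0.12, adjusted p = 0.0281). Among the 6 fits that left out 1 array, Skap2 and Atf2 passed in 1, Snx10 in 3, Smug1 in 4 and Hibadh in 6. As the mean of all their probe sets, Snx10 and Atf2 did not pass (0.63 and -0.27, adjusted p = 0.0789 and 0.120). The genes nearest to HoxD on either side that were above background, Lnpk and Mtx2, measured 8.71 ± 0.24 and 11.07 ± 0.10 in Thy1-positive, against 8.56 ± 0.39 and 10.94 ± 0.17 in Thy1-negative cells (SD), and did not pass (adjusted p = 0.739 and 0.425).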

How the data were processed

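RNA of 6 samples was hybridised to Affymetrix mouse arrays, 1 array per sample. The deposited table gives a linear intensity for every probe set and sample. Per the submitters' processing notes GCRMA was used, while the labels describe Microarray Suite signals scaled to an average of 150 after trimming. The trimmed mean lay between 285 and 291 on each array, so which procedure the authors used is unclear. No detection calls were used.

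Of 45101 probe sets, 64 controls were left out. The log2(intensity + 1) of the deposited values was used with no filter or further normalization. The platform annotation named 1 gene for 34945 probe sets, several for 932 and none for 9160. Cluster order and promoters came from RefSeq (GRCm38.p6). For each of 18193 genes the probe set with the highest mean log2 was fitted in limma 3.58.1 (lmFit and eBayes, R 4.3.3), with fraction as the term. SD describes the 3 arrays of 1 fraction, and SE comes from the limma fit. The fit was tested on simulated data. The labels do not pair arrays of 1 number, and their deviations correlated at -0.16, -0.17 and -0.04, so no block was used.

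Values of every array are given for Hox genes that passed or were above background. TALE partners above background were named, as were up to 3 members per direction of each other list with the largest differences that passed. Other genes named were chosen after their values were seen. The members and lists were chosen with earlier results of these data known. Alternatives changed the scaling, filter, pseudocount, variance model, probe set rule, background line or arrays.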

Additional observations from a re-analysis of the deposited data

How the results depend on the processing

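The count of Hox genes that passed as higher in Thy1-positive cells, 1 here, was 3 (Hoxb3, Hoxb4 and Hoxb6) with quantile normalization, with arrays centred on housekeeping genes, with genes above the median intensity only, with a floor for low values at the 25th percentile, with an intensity trend and robust variance and with the mean of all probe sets. It was 21 with arrays centred on their median, 6 with array weights (Hoxb2, Hoxb3, Hoxb4, Hoxb5, Hoxb6 and Hoxb13), 5 without both arrays numbered 2 (added after seeing the data) and 0 to 5 when 1 array was left out. The count of those lower, also 1, was 19 with housekeeping centring, 5 with array weights (Hoxb9, Hoxc8, Hoxd8, Hoxd9 and Hoxd10) and 1 to 3 when 1 array was left out. It was 2 (Hoxb9 and Hoxd10) with median centring, the floor, trend and robust variance, and without both arrays numbered 2. Hoxb9 passed in all 17 alternatives that tested it. Leaving out P2 gave 5 higher (Hoxb2 to Hoxb6), and leaving out P3 gave 0. The median difference of Hox genes was 0.13 with median and -0.15 with housekeeping centring. The Hox genes above background, 8 for Thy1-positive and 6 for Thy1-negative cells, became 21 and 21 at the 25th percentile, 2 and 2 at the 75th, and 17 and 16 at the 95th percentile of olfactory receptor probe sets. With the mean of all probe sets 5 were above it in Thy1-positive cells. Leaving out an array gave 8 for Thy1-positive and 6 to 7 for Thy1-negative cells.

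With the replicate number as a replicate block, 0 Hox genes were higher (Hoxb6 adjusted p = 0.0606 by limma) and Hoxb9 was lower. The block left 1 TALE partner higher and 0 lower, 0 chromatin regulators higher, and 0 flanking genes higher and 1 lower. It left 931 genes higher and 548 lower over the whole table, against 3368 and 2628 without it. Median centring made 10 homeobox relatives, 7 flanking genes and 2 other genes inside the clusters higher. Housekeeping centring made 10 relatives, 8 flanking genes and 4 genes inside the clusters lower. Over all genes, median centring gave 10436 higher and 2659 lower, and housekeeping centring 3194 and 8190. Array weights were estimated gene by gene because the REML estimate did not converge. They were lowest for P2 and N2 (0.29 and 0.18), so this alternative is not separate from leaving out both arrays numbered 2. Array weights made 10 regulators higher, 5 flanking genes higher and 5 lower, and 1 gene inside the clusters lower. Without both arrays numbered 2, 5 flanking genes were lower, and with the mean of all probe sets 3 regulators were lower. When 1 array was left out, 0 to 2 flanking genes were higher and 1 to 4 lower, 1 to 9 regulators higher and 4 to 6 lower, 2 to 3 TALE partners higher and 1 to 2 lower, and 0 to 1 genes inside the clusters lower. Differences near 0 turned sign for Hoxc6 (0.079 with quantile normalization, 0.086 with median centring, and -0.069 to 0.013 when 1 array was left out) and Hoxc4 (-0.12 with housekeeping centring, -0.27 with array weights, -0.24 without both arrays numbered 2, and -0.11 to 0.18 when 1 array was left out). Rnf2 turned to 0.041 with the mean of all probe sets. Apart from the centrings, the cause of these changes was not tested. The line at the array median stands in for detection calls, so dim genes have no measured limit of detection.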
